A study of Mus musculus and Acomys cahirinus with 2 samples.

Results

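Among the cells of Acomys cahirinus ear skin, 174 carried follistatin and Cyp1a1 transcripts together with the basal keratinocyte gene Col17a1. They were chosen by measured values: a barcode needed at least 2871 UMIs (unique molecular identifiers, 1 per captured transcript) and 200 genes, at least 3 UMIs of Fst, at least 3 of Cyp1a1 and at least 1 of Col17a1. Limits on other states were Krt10 under 1% of UMIs, at most 2 UMIs of Krt79, a gene of the upper hair follicle, and at most 1 UMI over the cycle genes Mki67, Top2a, Birc5 and Ube2c. The 174 cells made up 3.64% of the 4786 Acomys cells (exact Clopper-Pearson 95% interval 3.12 to 4.21%), and the series held 11732 cells in both species. They are called Fst and Cyp1a1 cells here.

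The study profiled adult ear skin of the house mouse, Mus musculus, and of Acomys cahirinus, a spiny mouse whose ear holes close by regeneration. Each species has 1 library made with droplet capture on the 10x Genomics platform, and both carry the label day 0. The series text speaks of injured ears, and no label gives the number of animals behind a library. Without replicates no test is possible, and every interval covers counting error only.

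Follistatin, the product of Fst, is a secreted protein that binds activin and keeps it from its receptors. Cyp1a1 is a cytochrome P450 and the textbook target of the aryl hydrocarbon receptor, a ligand-activated transcription factor that, once in the nucleus, binds a short DNA core with its partner Arnt. Col17a1 is a collagen of the hemidesmosome, which anchors basal keratinocytes to the basement membrane. NRF2, encoded by Nfe2l2, drives genes of glutathione synthesis and detoxification, a set that in skin is often described beside the receptor's targets.

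The genes that separated these cells belong in part to both sets, so the mouse promoters of 3 of them are shown. The sequences come from RefSeq on the GRCm38.p6 mouse build and run from 250 bases before to 50 after the start of the gene. The Acomys promoters were not used here. Capitals mark the core of the receptor's binding site, GCGTG, and matches of the NRF2 element, TGACNNNGC. Each was searched on both strands, and a match on the other strand appears as its reverse complement. No match of one overlapped a match of the other. Cyp1a1 is at chr9:57697363-57697662 and holds 1 match of GCGTG, Gclm is at chr3:122245307-122245606 with 3 matches of GCGTG and 1 of TGACNNNGC, and Gsta3 is at chr1:21240335-21240634 with 1 match of TGACNNNGC. All 3 are on the plus strand.
Cyp1a1: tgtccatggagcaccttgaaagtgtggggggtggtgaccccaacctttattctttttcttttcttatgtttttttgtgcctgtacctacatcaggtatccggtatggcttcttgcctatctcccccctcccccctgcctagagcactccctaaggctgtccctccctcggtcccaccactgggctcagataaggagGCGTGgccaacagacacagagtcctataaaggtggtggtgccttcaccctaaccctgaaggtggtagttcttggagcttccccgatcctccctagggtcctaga
Gclm: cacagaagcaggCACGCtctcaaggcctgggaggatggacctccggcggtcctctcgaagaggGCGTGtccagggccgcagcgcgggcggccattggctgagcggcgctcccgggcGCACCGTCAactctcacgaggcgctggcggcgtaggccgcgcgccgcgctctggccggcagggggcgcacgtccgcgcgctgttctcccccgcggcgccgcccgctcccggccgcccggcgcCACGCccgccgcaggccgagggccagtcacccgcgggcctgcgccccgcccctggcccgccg
Gsta3: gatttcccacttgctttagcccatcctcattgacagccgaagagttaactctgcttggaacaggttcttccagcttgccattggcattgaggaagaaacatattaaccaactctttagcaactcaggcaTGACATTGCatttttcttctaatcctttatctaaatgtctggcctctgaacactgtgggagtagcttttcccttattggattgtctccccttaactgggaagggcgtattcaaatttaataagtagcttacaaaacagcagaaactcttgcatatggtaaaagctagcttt

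Of the 15 genes named below as higher, 12 had a promoter in the table, and GCGTG was found in 4 of them and TGACNNNGC in 3. Over all 32851 promoters of the table, 32.4% held GCGTG and 12.4% held TGACNNNGC. These shares count single promoters, whereas a gene counted if any of its promoters held a match. Egr2 had several promoters and counted through overlapping ones, so the counts and shares are not like for like. A match is a run of letters in mouse DNA and shows neither a site in use nor its presence in Acomys.

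The Fst and Cyp1a1 cells had a median of 7527.5 UMIs (3677 to 16810) and 1995.5 genes. They were compared with 702 Acomys Col17a1 barcodes that had no Fst UMI and met the same other limits, with a median of 5960 UMIs (2880 to 14647). Over all Acomys cells the median was 7580 UMIs. A total of 32 barcodes occurred among the cells of both libraries, and 1 of them was an Fst and Cyp1a1 cell. Levels are CPM, a gene's UMIs summed over a group and scaled to a common total of UMIs.

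The genes of the rule describe the choice. Fst stood at 804 CPM in the Fst and Cyp1a1 cells and at 0 in the comparison barcodes, and per cell it ran from 3 to 19 UMIs with a median of 5. Cyp1a1 stood at 1102 against 244 CPM and ran from 3 to 23 UMIs with a median of 8. Col17a1 was at 304 against 384 CPM. Krt10 was at 3516 against 4393 CPM, and every cell of both groups held it, within the limit.

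The basal label was checked against genes outside the rule. All 174 cells carried Krt5 and all carried Krt15, both keratins of the basal layer. Krt5 stood at 5202 CPM against 8281 in the comparison barcodes, a ratio of 0.63 (0.61 to 0.64), and Krt15 at 4752 against 5302 CPM, a ratio of 0.90 (0.87 to 0.92). Per cell, the quartiles of the Krt5 values were 38.5 and 64.0 per 10000 UMIs in the Fst and Cyp1a1 cells and 39.4 and 104.7 in the others, so the groups overlapped. Of the 9 basal markers with a symbol, 6 were measured beside Col17a1 and none was 2-fold apart. Krt14, a further basal keratin, has no symbol in the Acomys gene list. Suprabasal genes were also present: Krtdap stood at 8764 against 6482 CPM with a median per cell of 77.6 against 52.5 per 10000 UMIs. Krt1 stood at 992 against 646 CPM in sum, but its median per cell was 4.003 against 4.54 per 10000 UMIs and its highest cell 132 against 46.4. The basal markers were thus detected, at a lower level of Krt5 than in Col17a1 barcodes without Fst and in free RNA. What part of the Krt5 came from the cells themselves was not tested.

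Free RNA reaches every droplet and bears on the threshold for Cyp1a1. Among 43 barcodes with endothelial markers, 23.3% held a Cyp1a1 UMI and 14.0% an Fst UMI at a median of 3379 UMIs, and Cyp1a1 stood there at 223 CPM. Its 38 UMIs lay in those 23.3% alone, so this was not an even level. Among 13 barcodes with T cell markers, 30.8% held a Cyp1a1 UMI, with 28 UMIs in all. Whether such barcodes also held keratinocyte material was not tested. Barcodes of 1 to 10 UMIs gave 220 CPM for Cyp1a1 and 106 CPM for Fst. The comparison barcodes, of which 40.6% held a Cyp1a1 UMI, stood at 244 CPM in sum. That sum was a mixture of barcodes and not an even level. The 112 of them with at least 3 Cyp1a1 UMIs held 882 of the 1096 UMIs, and 417 held none. What part of a barcode's UMIs was free RNA was not measured, so the sum is not placed against the background. The Fst and Cyp1a1 cells stood 4.51 times above the comparison barcodes (4.17 to 4.88) by the rule. The enzymes described below were also found in the endothelial barcodes. These held 1607 CPM of Aldh3a1, 287 of Gpx2, 387 of Gsta3 and 410 of Akr1c18, against 3811, 228, 365 and 285 CPM in the comparison barcodes. Free RNA of barcodes with 1 to 10 UMIs held 3013 CPM of Aldh3a1 and 977 of Adh7. In the comparison barcodes Gpx2, Gsta3 and Akr1c18 were thus below the endothelial level, while Aldh3a1 was above both values. Adh7, at 1529 CPM in the comparison barcodes, was above the value of free RNA. Comparison barcodes without Cyp1a1, described below, held less of each of these enzymes than the group as a whole, with Adh7 at 954 CPM. The endothelial level is thus not a floor for every barcode. With 10% of each group's UMIs subtracted as free RNA, all 15 genes named below as higher were still at least 2-fold higher. That outcome was fixed in advance: the same CPM is taken from both groups, so a ratio above 1 can only rise.

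Fst and Cyp1a1 occurred together more often in barcodes with more Fst. Over the 1480 Col17a1 barcodes that met the limits, the share with a Cyp1a1 UMI was 40.6% with no Fst UMI, 45.2% with 1, 56.5% with 2, 64.3% with 3 to 4, 73.3% with 5 to 9 and 75.8% with 10 or more. Deeper barcodes hold more of both genes, so each barcode was also thinned to 2871 UMIs, while the groups by Fst were kept. The shares were then 27.1, 35.5, 46.6, 50.3, 57.8 and 59.7% in the same order. Both genes belong to the rule, so these shares describe the library the cells were chosen from and support nothing about them. Of all 778 barcodes with Fst, 58.6% held a Cyp1a1 UMI (55.1 to 62.1%). Within the 174 cells the levels of Fst and Cyp1a1 per 10000 UMIs had a Pearson r of 0.21. Both levels share the UMI total as denominator, with which Fst had an r of -0.28 and Cyp1a1 of -0.44.

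**Figure D1:**
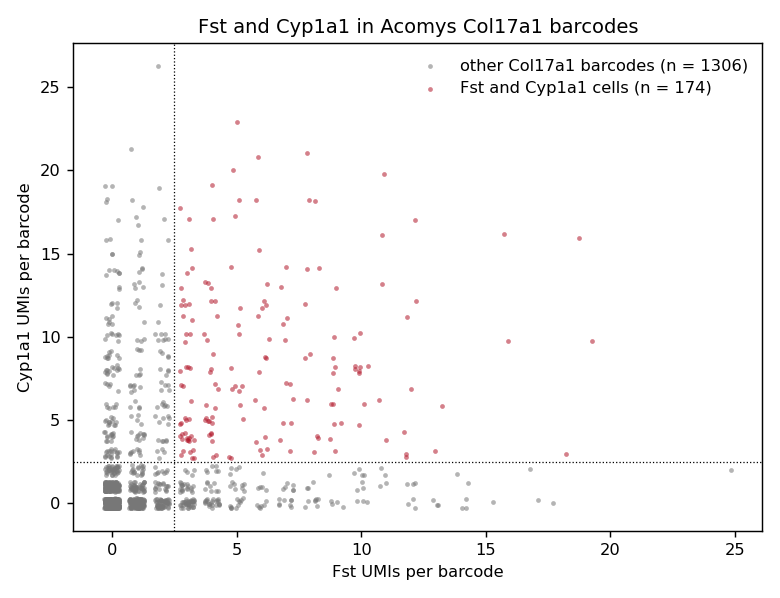
UMIs of Fst (x axis) and of Cyp1a1 (y axis) in each of the 1480 Acomys Col17a1 barcodes within the limits, with a small random shift so that points can be told apart. Dotted lines mark the minimum of 3 UMIs for each gene, and the 174 red points are the Fst and Cyp1a1 cells; barcodes with many UMIs of 1 gene and none of the other lie along both axes.

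The thresholds cut through a continuous range. With all other limits met, 44 cells had exactly 3 Fst UMIs and stood at 8832 CPM of Aldh3a1, and 49 barcodes just outside, with 2 Fst UMIs, stood at 9213 CPM. For Cyp1a1, the 20 cells with 3 UMIs had 6208 CPM of Aldh3a1 and the 25 barcodes with 2 UMIs had 6716. For Col17a1, 60 cells had 1 UMI and 41 barcodes had none, with 5071 and 4565 CPM of Krt5. For Krt79, 42 cells had 2 UMIs and 23 barcodes had 3. For Krt10, 12 cells had 0.5 to 1% of their UMIs and 2 barcodes had 1 to 1.5%. For the cycle genes, 45 cells had 1 UMI and 15 barcodes had 2. Without the limits on other states, 516 Acomys cells had at least 3 UMIs of both Fst and Cyp1a1, of which 211 were over the Krt79 limit, 112 lacked Col17a1, 110 were over the cycle limit and 35 over the Krt10 limit.

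Among 4168 genes with at least 20 CPM in the higher group and 20 UMIs in all, 61 were at least 2-fold higher in the Fst and Cyp1a1 cells (1.46%) and 116 at least 2-fold lower (2.78%). The rule chose the cells by genes of these same libraries, so the counts describe the choice and include Fst and Cyp1a1. The median log2 ratio over all genes was 0.01. The genes named are the 15 highest and the 15 lowest at 50 CPM or more, ranked on whichever interval bound lay closer to 1.

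Enzymes of detoxification and glutathione use led the higher genes by level. Aldh3a1, an aldehyde dehydrogenase, stood at 8433 CPM against 3811, a ratio of 2.21 (2.16 to 2.27). Per cell its median was 82.8 per 10000 UMIs (12.7 to 203) against 26.5 (1.43 to 273), so the lower quartile of the first group (59.8) lay just above the upper quartile of the second (59.2), while the ranges overlapped. Adh7, an alcohol dehydrogenase that oxidises retinol and ethanol, stood at 4032 against 1529 CPM, a ratio of 2.64 (2.54 to 2.73), and its median per cell was 39.5 against 10.0 per 10000 UMIs. Gsta3, a glutathione transferase, stood at 868 against 365 CPM, a ratio of 2.38 (2.21 to 2.57). Gpx2, a glutathione peroxidase of epithelia, stood at 674 against 228 CPM, a ratio of 2.96 (2.71 to 3.24). After thinning to 2871 UMIs, 76.4% of Fst and Cyp1a1 cells and 32.8% of comparison barcodes held a Gpx2 UMI. Gclm, the modifier subunit of the enzyme that starts glutathione synthesis, stood at 304 against 107 CPM, a ratio of 2.85 (2.49 to 3.26). Akr1c18, a hydroxysteroid dehydrogenase, stood at 648 against 285 CPM, a ratio of 2.28 (2.09 to 2.48).

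**Figure D2:**
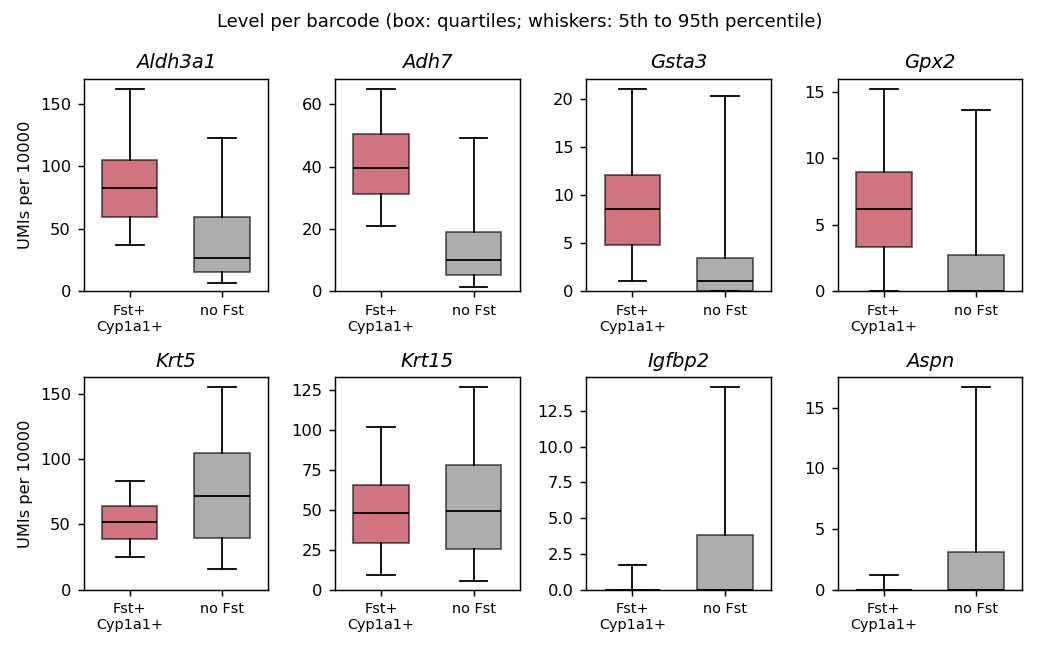
Level of 8 genes per barcode in UMIs per 10000 (y axes, linear from 0) in the 174 Fst and Cyp1a1 cells (red) and the 702 Col17a1 barcodes without Fst (grey); boxes show quartiles, the line the median and whiskers the 5th to 95th percentile. The boxes of Aldh3a1, Adh7, Gsta3 and Gpx2 lie higher in red, those of Krt5 and Krt15 overlap, and Igfbp2 and Aspn are at 0 in most red cells.

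The other 9 higher genes had less in common. Mal, a membrane proteolipid of apical transport, had the highest ratio among them, 6.32 (4.50 to 8.95), at 76.1 against 12.05 CPM, and was found in 36.8% of the cells and 6.12% of comparison barcodes. Apoc4, an apolipoprotein, stood at 91.6 against 20.5 CPM. C1qtnf12, a secreted hormone-like protein, stood at 290 against 89.9 CPM, and Sparcl1, a secreted matricellular protein, at 205 against 65.1 CPM. A4galt, which makes globo-series glycolipids, stood at 109 against 30.8 CPM. Egr2, an immediate early transcription factor, stood at 60.6 against 17.6 CPM, and Ptgds, a prostaglandin D synthase, at 165 against 60.7 CPM. Chchd10, a mitochondrial protein, stood at 584 against 237 CPM. Ccl20, the chemokine of the receptor Ccr6, stood at 335 against 131 CPM, but 54.3% of its UMIs in the Fst and Cyp1a1 cells came from 10 of them, and 76 of the 174 cells held any.

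The lower genes included binding proteins of insulin-like growth factor and genes of mesenchyme and hair follicle. Igfbp2 stood at 28.1 CPM against 366, 13.0-fold lower (9.44 to 18.5), and was found in 17.2% of the cells against 43.3% of comparison barcodes. Igfbp3 stood at 32.5 against 399 CPM, 12.3-fold lower (9.10 to 16.95). Aspn, a small leucine-rich matrix protein, stood at 21.4 against 235 CPM, 10.98-fold lower (7.60 to 16.5), and was found in 15 of the 174 cells. Serpinb10 and Serpinb7, intracellular protease inhibitors, were 9.41-fold and 5.45-fold lower. Cxcl14, a chemokine of resting epithelium, was 8.19-fold lower (5.41 to 13.0). Ly6d, a surface protein of keratinocytes, stood at 164 against 827 CPM, 5.04-fold lower (4.40 to 5.80). Tcea3, a transcription elongation factor, Gdpd2, a phosphodiesterase, Arhgdib, and Qpct, which cyclises N-terminal glutamine, were between 5.47-fold and 10.9-fold lower. Efemp1, a fibulin, was 4.79-fold lower.

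**Figure D3:**
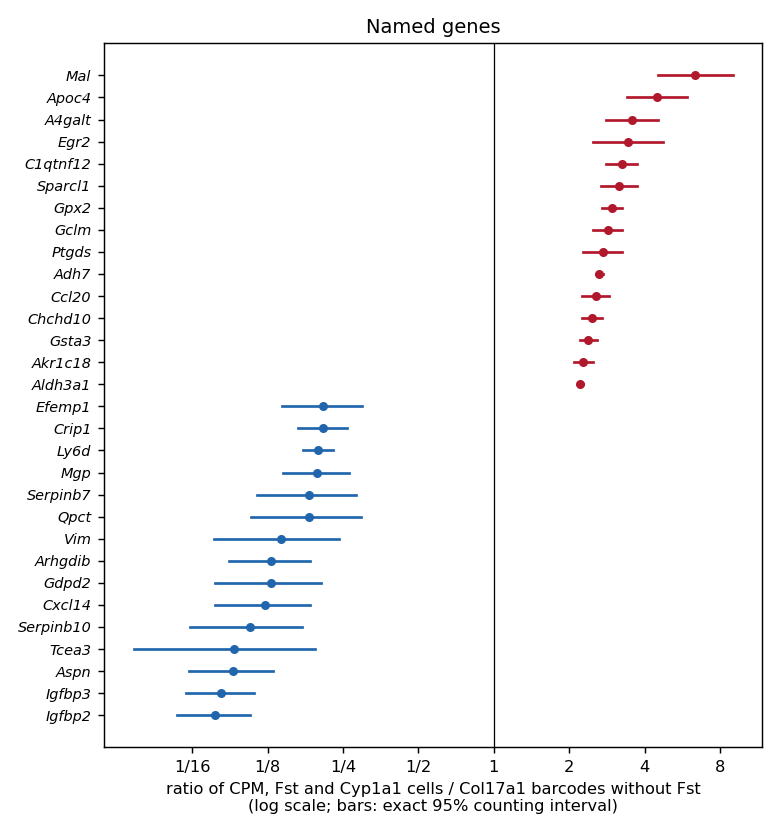
Ratio of CPM in the 174 Fst and Cyp1a1 cells to CPM in 702 Col17a1 barcodes without Fst (x axis, log scale) for the 15 genes of highest (red) and the 15 of lowest (blue) ratio, with exact 95% counting intervals as bars. Ratios run from 2.21 for Aldh3a1 to 6.32 for Mal, and from 4.79-fold lower for Efemp1 to 13.0-fold lower for Igfbp2.

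Some lower values rested on few barcodes of the comparison group. For Vim, the intermediate filament of mesenchyme, which was 7.09-fold lower, 10 of the 702 barcodes held 48.6% of the UMIs. For Mgp, matrix Gla protein, which was 5.07-fold lower, 10 barcodes held 68.6%, and for Crip1, a LIM protein that was 4.82-fold lower, 34.4%. For Igfbp2, Igfbp3 and Aspn the shares were 13.1, 20.1 and 12.6%. Without the 86 comparison barcodes that held a Vim UMI, the log2 ratio of Mgp was -0.87 in place of -2.33, and that of Aspn was -3.42 in place of -3.43. With at least 5000 UMIs in both groups, Crip1 was at -0.33 in place of -2.26 and Mgp at -0.38. Of the genes known by an identifier alone, 3 were chosen after their values were seen. ACOCA10068_EIv1_0051290 was 67.7-fold lower and ACOCA10068_EIv1_0103100 was 52.4-fold lower, and 10 comparison barcodes held 98.3 and 98.0% of their UMIs. On the higher side, ACOCA10068_EIv1_0174230 stood at 270 against 41.0 CPM and was found in 62.1% of the cells against 12.4% of comparison barcodes.

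Among the cell types outside the keratinocytes, summed markers were lower in the Fst and Cyp1a1 cells than in the comparison barcodes, apart from the 5 Merkel cell markers at 6.65 against 3.57 CPM. All 9 Merkel marker UMIs in these cells were of Krt20, and Krt8, Krt18, Atoh1 and Chga were at 0. Krt1, Krtdap and Lor, the 3 measured suprabasal keratinocyte markers outside the rule, summed to 9806 against 7190 CPM. The 7 fibroblast markers summed to 76.9 against 226 CPM, with Lum and Pdgfra at 0 in the Fst and Cyp1a1 cells, and Dcn made up most of both sums. The 7 endothelial markers summed to 24.4 against 51.5 CPM with Cdh5 at 0, and the 6 chondrocyte markers to 24.4 against 108 CPM with Col2a1, Col9a1 and Matn1 at 0. The 4 mural markers summed to 3.69 against 8.92 CPM with Rgs5 and Pdgfrb at 0, the 6 T cell markers to 12.6 against 28.6 CPM with Trac and Cd2 at 0, and the 6 myeloid markers to 12.6 against 16.95 CPM with Csf1r, Aif1 and Tyrobp at 0. The 7 sebocyte markers summed to 180 against 205 CPM. The 6 melanocyte markers summed to 8.87 against 29.0 CPM with Dct and Tyr at 0, and the 4 Schwann cell markers were at 0. The part of these cells in the lower mesenchymal genes was not tested beyond the values without Vim barcodes.

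Lists of genes are described next. A gene counts as measured at 20 CPM in the group where it is higher, so one that is under 20 CPM in the other group was admitted by its own difference. Counts and medians over measured members are therefore descriptions. Over all 4168 measured genes, 1.46% were at least 2-fold higher and 2.78% lower. These shares stand beside each count of a list against the comparison barcodes. Where barcodes with Fst alone or Cyp1a1 alone were set against barcodes with neither, no share over all genes was calculated.

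The receptor and its targets were described from a list of 25 genes, of which 9 were measured outside the rule. Of these, 2 were at least 2-fold higher, Aldh3a1 and Cyp1b1, and 1 at least 2-fold lower, Serpinb2, and the median log2 ratio was 0.47 against 0.01 over all genes. Cyp1b1 and Serpinb2 were measured through 1 group alone. The median was 0.26 with no Cyp1a1 minimum, 0.92 against a comparison group with no limit on Krt10, Krt79 or cycle genes, 1.05 against barcodes without Cyp1a1 and 0.76 with no minimum level beyond 1 UMI in both groups. Cyp1b1, a P450 of the Cyp1 family, stood at 20.7 against 8.48 CPM, a ratio of 2.44 (1.44 to 4.08). Ahr itself was detected by 21 UMIs against 35 (15.5 against 7.81 CPM), below the minimum level. Ahrr, the repressor of the receptor, had 5 UMIs against 1, a ratio of 16.6 with an interval from 1.85 to 783. Aldh3a1 made up 8433 of the 9714 CPM that the list summed to.

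Of 20 measured NRF2 and oxidative stress genes, 5 were at least 2-fold higher, none was 2-fold lower, and the median log2 ratio was 0.70, or 0.38 with no minimum level. Osgin1 and Gclc were measured through the Fst and Cyp1a1 cells alone. Beside Gpx2 and Gclm these were Osgin1, a stress-induced growth inhibitor, at 33.3 against 12.3 CPM, Gclc, the catalytic subunit beside Gclm, at 34.7 against 16.1 CPM, and Txnrd1, thioredoxin reductase, at 68.0 against 32.1 CPM. Nfe2l2 itself was at 360 against 213 CPM, a ratio of 1.69 (1.51 to 1.89), and Nqo1, a quinone reductase, at 42.9 against 22.3 CPM, a ratio of 1.92 (1.37 to 2.68). Hmox1, heme oxygenase, had 1 UMI in the Fst and Cyp1a1 cells. Against Col17a1 barcodes with at least 3 Cyp1a1 UMIs and no Fst, 0 of 21 measured NRF2 genes were 2-fold apart, with a median of -0.13. In the receptor list 0 of 9 were higher and 1 lower there, with a median of -0.26. Over all 4153 genes of that comparison, 1.04% were 2-fold higher and 1.61% lower. Those Cyp1a1 barcodes themselves had 10 of 21 NRF2 genes at least 2-fold higher than barcodes with neither gene. The share over all genes was not calculated there, so that count is a description. Of 15 measured cytochrome P450 and drug enzymes, 3 were at least 2-fold higher (Cyp4b1, Gsta3 and Akr1c18) and 1 lower (Gstm5), with a median of -0.04.

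Ligands that follistatin is known to bind were barely detected. Inhba, the activin A subunit, had 11 UMIs in the Fst and Cyp1a1 cells and 5 in the comparison barcodes, a ratio of 7.29 (2.33 to 26.8) at 8.13 against 1.12 CPM. Inhbb had 0 and 3 UMIs. Of the 4 measured ligands and antagonists of the activin, TGF-beta and BMP families, 1 was at least 2-fold lower, Bmp2, at 7.39 against 25.2 CPM. Of the 2 measured receptors and SMAD regulators, none was 2-fold apart.

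Genes known to respond to TGF-beta and BMP include the Id family. Of 9 measured, 5 were at least 2-fold lower and none 2-fold higher, with a median log2 ratio of -1.13, which was -0.64 with at least 5000 UMIs in both groups and -0.54 with no minimum level. Id4 and Cyr61 were measured through the comparison barcodes alone. Id2, Id3 and Id4, inhibitors of helix-loop-helix factors, were 4.47-fold, 3.77-fold and 2.80-fold lower, and Cyr61 was 3.40-fold lower. Id1, at 92.4 CPM in the Fst and Cyp1a1 cells, was not among the 5 lower genes. Ctgf, a matricellular protein, was 2.198-fold lower, and its log2 ratio was the median of the list. With at least 5000 UMIs in both groups the log2 ratio of Ctgf was 0.99 in place of -1.13. Hes1 went the other way, at 233 against 156 CPM. Among Col17a1 barcodes within the limits, those with at least 3 Fst UMIs and no Cyp1a1 were compared with those with neither gene. Of 9 measured response genes 0 were 2-fold lower there, with a median of 0.14. With at least 3 Cyp1a1 UMIs and no Fst, 5 of 9 were lower than with neither gene, with a median of -1.58. Both counts lack a share over all genes and are descriptions. Between the Fst and Cyp1a1 cells and those Cyp1a1 barcodes, 1 of 7 was lower (1.61% of all 4153 genes), with a median of -0.11. A list of EGF, FGF and other growth factors, receptors and related genes had 11 measured members, with a median of -1.44. Of these, 7 were at least 2-fold lower: Igfbp2, Igfbp3, Igfbp6, Igfbp7, Kitl, Dusp6 and Pdgfa. Igfbp6, Kitl and Dusp6 were measured through the comparison barcodes alone, and the median was -0.21 with no minimum level and -0.47 with no Cyp1a1 minimum. In the same list Fgfbp1, which releases stored FGF, stood at 653 against 348 CPM.

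Among hair follicle and Wnt genes none was 2-fold higher. Of 16 measured follicle genes, 5 were at least 2-fold lower: Aspn, Cxcl14, Sfrp1, Lhx2, a transcription factor of follicle stem cells, and Ctgf. With at least 5000 UMIs in both groups the median of this list was 0.29 in place of -0.28, and Ctgf turned, as given above. With no Cyp1a1 minimum the median was 0.16. The whole list summed to 19114 against 17191 CPM. Of 8 measured Wnt genes, 3 were at least 2-fold lower: Lrp4, Sfrp1 and Wnt3, at 21.4 against 58.9 CPM. Sox9, a follicle transcription factor, stood at 150 against 87.9 CPM. Of 14 measured genes of the basal keratins, hemidesmosome and basement membrane, only Lama3 was 2-fold apart, at 10.3 against 21.4 CPM. Of 9 measured wound-edge genes, Tnc was at least 2-fold higher, at 21.4 against 9.37 CPM, and Gja1, Serpinb2 and Lama3 lower. Among 32 measured genes of the respiratory chain and 11 of S phase, none was 2-fold apart.

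To see which values went with Fst and which with Cyp1a1, the Col17a1 barcodes within the limits were divided by both genes. Besides the 174 cells with both, 112 had at least 3 Fst UMIs and no Cyp1a1 UMI, 112 had at least 3 Cyp1a1 UMIs and no Fst UMI, and 417 had neither. Their median depths were 5495.5, 6088 and 5391 UMIs. These groups were also made by measured values, and comparisons against the barcodes with neither share them.

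The leading detoxification enzymes were at least as high with Cyp1a1 alone as with both, apart from Adh7 at 4010 and 4032 CPM. Aldh3a1 stood at 9047 CPM with Cyp1a1 alone, 8433 with both, 5522 with Fst alone and 2783 with neither. Gsta3 stood at 1294, 868, 307 and 152 CPM in the same order. Akr1c18 stood at 1060, 648, 135 and 107 CPM. Gpx2 stood at 756, 674, 201 and 97.3 CPM, and Gclm at 379, 304, 123 and 48.1 CPM. Between the cells with both and the barcodes with Cyp1a1 alone, none of the 15 named higher genes was 2-fold higher or lower, where 1.04% of all 4153 genes were 2-fold higher and 1.61% lower. The 15 genes were chosen for their level in these same cells, so the count is a description. Akr1c18 was 4.81-fold higher with both than with Fst alone (3.87 to 6.04). Against barcodes with neither gene, Gsta3 was 8.53-fold higher with Cyp1a1 alone (7.58 to 9.63) and 2.02-fold higher with Fst alone.

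Ccl20 was the only one of the 15 that stood higher with Fst alone than with both. It was at 385 CPM with Fst alone, 335 with both, 201 with Cyp1a1 alone and 125 with neither. C1qtnf12 stood at 213, 290, 225 and 62.4 CPM and Sparcl1 at 158, 205, 157 and 40.7 CPM, so either gene alone went with a higher level than neither.

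**Figure D4:**
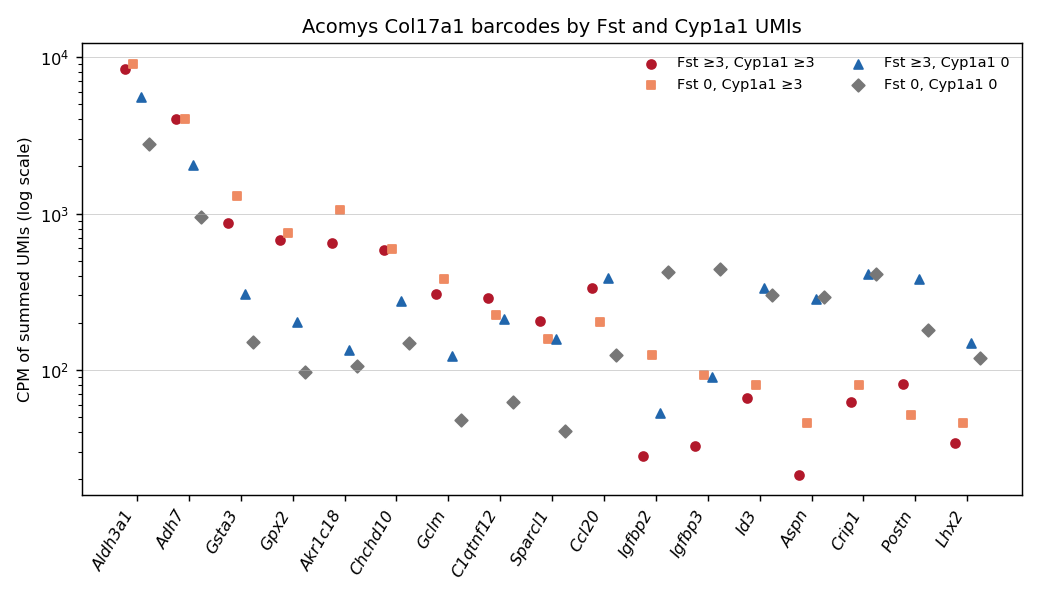
CPM of summed UMIs (y axis, log scale) of 17 genes in Acomys Col17a1 barcodes with both Fst and Cyp1a1 (red circles), Cyp1a1 alone (orange squares), Fst alone (blue triangles) and neither (grey diamonds). For Gsta3, Gpx2, Akr1c18 and Gclm the squares and circles lie above the triangles; for Aspn, Crip1, Postn and Lhx2 the triangles lie above the circles.

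Several follicle and matrix genes, in part chosen after their values were seen, differed between Fst barcodes with and without Cyp1a1. Aspn stood at 284 CPM with Fst alone and 293 with neither, but at 21.4 with both and 45.9 with Cyp1a1 alone. Postn, periostin, stood at 381 CPM with Fst alone against 81.3 with both, Lhx2 at 150 against 34.0 and Id3 at 336 against 65.8. Postn was found in 77.7% of the barcodes with Fst alone and in 32.2% of the cells with both, and after thinning in 63.4 and 14.9%. Krt35, a hair keratin, stood at 484 CPM with Fst alone and 76.9 with both.

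Igfbp2 and Igfbp3 were low with either gene and lowest with both. Igfbp2 stood at 423 CPM with neither, 125 with Cyp1a1 alone, 53.3 with Fst alone and 28.1 with both. Igfbp3 stood at 443, 93.1, 90.3 and 32.5 CPM in the same order. Against Cyp1a1 alone, the cells with both were 4.45-fold lower in Igfbp2 (3.02 to 6.69) and 2.86-fold lower in Igfbp3 (1.93 to 4.29). Of the 15 named lower genes, 6 were at least 2-fold lower in that comparison, against 1.61% of all 4153 genes. Fabp4, a fatty acid binding protein chosen after its values were seen, stood at 149 against 52.8 CPM there.

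Across the 1480 Col17a1 barcodes the genes whose levels were most like Fst were Aldh3a1 (Pearson r 0.38), C1qtnf12 (0.29), Sparcl1 (0.27), Adh7 (0.27), Fxyd3, Cebpb, Gsta3, Gpx2, A4galt and Cyp1a1 (0.23). Those most like Cyp1a1 were Gsta3 (0.60), Adh7 (0.60), Akr1c18 (0.58), Gpx2 (0.58) and Aldh3a1 (0.51). The barcodes share a library, and the values share depth, so these are descriptions.

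Other Acomys classes also held these enzymes. The named genes were chosen for their level in the Fst and Cyp1a1 cells, so counts of them here are descriptions. In 1287 barcodes with at least 3 Krt79 UMIs, Cyp1a1 stood at 616 CPM, Gpx2 at 788, Gsta3 at 789 and Akr1c18 at 1292 CPM. Only 4 of the 15 named higher genes were 2-fold higher in the Fst and Cyp1a1 cells than there (Mal, Apoc4, C1qtnf12 and Sparcl1), against 3.16% of 4149 genes. Against 1340 barcodes with Krt10 at 1% or more, 13 of 15 were 2-fold higher (15.3% of 4178 genes), and against 339 barcodes with at least 4 UMIs of the cycle genes 7 of 15 (2.52% of 4247 genes). Of the 15 lower genes, 6 were 2-fold lower than in Krt79 barcodes (6.85% of genes), 6 than in Krt10 barcodes (9.29%) and 8 than in cycling ones (7.49%). Aldh3a1 and Adh7 stood at 4715 and 2158 CPM in Krt79 barcodes and at 4357 and 2197 CPM in cycling ones, below their levels in the Fst and Cyp1a1 cells. Ccnd1, cyclin D, stood at 180 CPM against 53.4 in Krt79 barcodes.

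No Mus cell met the whole rule. Mus cells had over 4694 UMIs, a higher minimum than in Acomys, and Mus barcodes with fewer UMIs were not checked. Limits on Krt10, Krt79 and cycle genes were the same. Over the 3257 Mus Col17a1 barcodes within these limits, Cyp1a1 had 7 UMIs in all. Of them, 53 had at least 3 Fst UMIs, at a median of 6516 UMIs against 10255 in those without Fst. These 53 were set against 3005 Mus Col17a1 barcodes without Fst, and the Acomys barcodes with at least 3 Fst UMIs and any Cyp1a1 (368) against their own. Each ratio is within 1 library, since gene lists and references differ between the species. Of 5200 Mus genes, 9.04% were at least 2-fold higher and 3.54% lower, against 0.745% and 1.61% of 4162 in Acomys.

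Of the detoxification genes, Aldh3a1, Adh7 and Gpx2 were higher with Fst in both species. Aldh3a1 stood at 467 against 181 CPM in Mus, a ratio of 2.58 (2.24 to 2.96), beside 1.87 in Acomys. Adh7 stood at 290 against 90.8 CPM, a ratio of 3.19 (2.66 to 3.80), beside 2.10 in Acomys. Gpx2 stood at 46.1 against 3.86 CPM in Mus, and 22.6% of the 53 barcodes held it. Of the 15 named higher genes, 5 were measured in Mus, 3 of them at least 2-fold higher and none 2-fold lower. Over all 5200 Mus genes 9.04% were at least 2-fold higher.

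The follicle genes gave other ratios in Mus than in Acomys. Aspn stood at 81.1 against 1.29 CPM in Mus, 63.0-fold higher with Fst (39.4 to 100.5), where the Acomys ratio was 0.49. Lhx2 stood at 110 against 3.89 CPM and Krt17, a follicle keratin, at 4307 against 78.8 CPM in Mus, where the Acomys ratios were 0.80 and 0.97. Sox9 stood at 230 against 18.1 CPM in Mus, beside a ratio of 1.45 in Acomys. Pthlh, parathyroid hormone-like hormone, was the gene of highest ratio by its bound in Mus, at 248 against 3.53 CPM. Its Acomys ratio was 0.86, at 2.68 against 3.12 CPM. Igfbp3 was lower with Fst in both species, at 61.4 against 228 CPM in Mus. Species, library and reference cannot be told apart, and the difference was not tested.

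**Figure D5:**
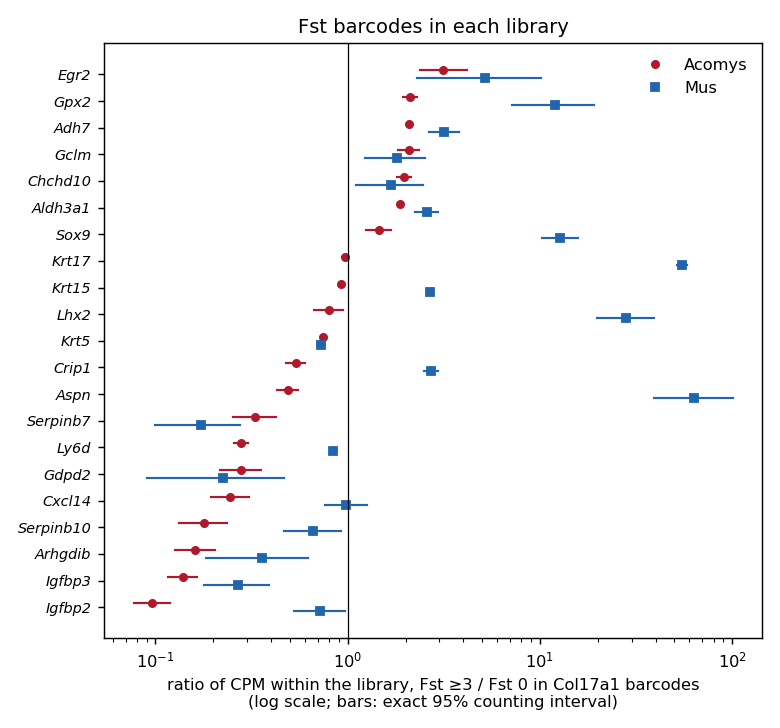
Ratio of CPM in Col17a1 barcodes with at least 3 Fst UMIs to CPM in those without Fst (x axis, log scale), within the Acomys library (red circles) and within the Mus library (blue squares), with exact 95% counting intervals as bars. Gpx2, Adh7 and Aldh3a1 lie right of 1 in both libraries, whereas Aspn, Lhx2 and Krt17 lie far right of 1 in Mus alone.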

How the data were processed

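Single cells of ear skin were measured in 1 Mus and 1 Acomys library. The authors deposited raw counts of UMIs for each gene in each barcode. The submitters' processing notes name Cell Ranger 2.2.0 and mm10 for both libraries. The Acomys list holds 24509 genes, 8324 of them identifiers alone and none mitochondrial. Its annotation build was not given in the sources used here. All 737280 barcodes were deposited without a cell filter.

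Cells had at least 1/10 of the 99th percentile of the 3000 largest barcodes, 2871 UMIs in Acomys and over 4694 in Mus, and 200 genes. No doublet was removed, and 10 of the 174 cells and 11 comparison barcodes were among the 183 of highest doublet score. Counts were summed per group and scaled to CPM. Ratios carry exact conditional binomial 95% intervals, and log2 ratios a prior count of 0.5. Genes were measured at 20 CPM in the higher group and 20 UMIs in all. Named genes had a symbol, 50 CPM and 50 UMIs, and were the 15 highest and 15 lowest by the interval bound nearest to 1, leaving out ribosomal, histone, MHC and immunoglobulin genes and genes of the rule. From lists, members of highest level or 2-fold apart were also named. Genes named in comparisons with other classes, in the split by Fst and Cyp1a1 and in Mus, and list members under the minimum level, were partly chosen after their values were seen. The members and the 31 pathway and 13 marker lists were chosen with earlier results of these data known. The calculation was tested on simulated data. Python 3.11.15, numpy 2.4.6, scipy 1.17.1 and pandas 2.3.3 were used.

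Alternatives changed the comparison group, the minimums of UMIs, Fst and Cyp1a1, doublets, scaling, centring, free RNA and the filter on low values. The comparison without Vim barcodes was chosen after seeing the data.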

Additional observations from a re-analysis of the deposited data

How the results depend on the processing

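All 30 named genes kept their direction under the alternatives, except Vim, at 6.41 (log2 ratio) once barcodes with a Vim UMI were left out of the comparison, which removes it there by construction. At least 2-fold stayed 13 to 15 of the 15 lower genes, and 14 or 15 of the 15 higher ones but for 10 with no Cyp1a1 minimum. Ctgf turned to 0.49 within the 5th to 95th percentile of depth, 0.31 against a comparison group with no limit on Krt10, Krt79 or cycle genes, 0.99 at 5000 UMIs and 0.37 with no Cyp1a1 minimum, and Cytl1 to 0.023 at 5000 UMIs.

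The 61 higher genes became 124 with no such limit, 111 against barcodes without Cyp1a1, 29 at 50 CPM, 95 at 5000 UMIs, 31 with no Cyp1a1 minimum and 1132 with no minimum beyond 1 UMI. The 116 lower genes became 236 with no such limit, 57 at 50 CPM, 67 with no Cyp1a1 minimum and 566 with no minimum beyond 1 UMI. The number of cells became 285 at 1 Fst UMI, 101 at 5 and 368 with no Cyp1a1 minimum. The share of Fst barcodes with Cyp1a1 became 70.3% at 5000 UMIs and 47.0% with each barcode thinned before it was classed.

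List medians (log2) that moved are given by setting. With no limit on Krt10, Krt79 or cycle genes they were -0.45 for TGF-beta and BMP response, 0.31 for Wnt, 0.43 for activin, TGF-beta and BMP ligands, 0.92 for the aryl hydrocarbon receptor, 0.21 for basal genes, 0.15 for cell-matrix genes, -1.59 for barrier genes, 0.087 for follicle genes, 0.38 for fate transcription factors, 0.56 for prostaglandin enzymes and -0.997 for wound-edge genes. With no Cyp1a1 minimum they were -0.47 for EGF and FGF, -0.36 for the response genes, 0.26 for the receptor, -0.36 for cell-matrix and 0.16 for follicle genes. Against barcodes without Cyp1a1 they were -1.64 for the response genes, -0.61 for ligands, 1.05 for the receptor and -2.06 for chemokines. Within the percentiles of depth they were -0.58 for the response genes, 0.014 for Wnt, -0.41 for cell-matrix and 0.20 for follicle genes. At 5000 UMIs they were -0.64, 0.015, -0.38 and 0.29 for the same lists, and at 1000 UMIs -1.03 for follicle genes. As a mean over cells they were -1.74 for the response genes, -0.89 for Wnt, -0.73 for ligands, -1.89 for cell-matrix and -0.41 for wound-edge genes. At 50 CPM they were 0.71 for chemokines, 0.47 for prostaglandin enzymes and -0.92 for wound-edge genes. With no minimum beyond 1 UMI they were -0.21 for EGF and FGF, -0.54 for the response and for the cell-matrix genes, 0.0023 for Wnt and 0.76 for the receptor. With free RNA subtracted wound-edge genes were at -0.78, and at 1 Fst UMI cell-matrix genes were at -1.29. The causes were not tested. No paired analysis was possible because each species has 1 library, and for the same reason no library could be left out.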

Other observations

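Genes of prostaglandin, retinoid and cytokine handling were described in the Fst and Cyp1a1 cells beside the genes above. Of 8 measured prostaglandin and steroid enzymes, Ptgds was at least 2-fold higher, and Ptges, prostaglandin E synthase, and Pla2g4a, which frees arachidonic acid, were lower, at 3.69 against 25.9 CPM and at 21.4 against 63.3 CPM. Hpgd, which breaks prostaglandins down, stood at 293 against 207 CPM. Of 6 measured retinoid genes, 2 were at least 2-fold higher and none 2-fold lower, with a median log2 ratio of 0.02. Cyp26a1, which degrades retinoic acid, stood at 25.9 against 8.70 CPM. Of 11 measured epithelial cytokines, alarmins and NF-kB genes, Il34, a ligand of the Csf1 receptor, was 2-fold higher at 61.3 against 26.8 CPM, and Il18 and Nfkbia were 3.43-fold and 2.17-fold lower. Among 5 measured chemokines, Ccl7 stood at 5.91 against 46.4 CPM.

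Among 18 measured fate transcription factors, Ehf, an ETS factor of epithelia, stood at 33.3 against 11.2 CPM, and Cebpb at 667 against 430 CPM. Ehf was also higher than in barcodes with Cyp1a1 alone, at a ratio of 2.99 (1.40 to 7.35). Of 16 measured barrier genes, the kallikreins Klk10 and Klk11 were 8.10-fold and 3.79-fold lower, at 6 and 9 UMIs in the Fst and Cyp1a1 cells.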
